A study of Homo sapiens with 12 samples.

Results

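Cadherins and protocadherins were taken from the gene table by symbol, as all rows named *CDH*, *PCDH* or *PCDHB* followed by a number, *FAT1* to *FAT4* or *CELSR1* to *CELSR3*. This gave 57 genes of 26485 in the table: 23 cadherins (*CDH*), 11 non-clustered protocadherins (*PCDH*), 16 beta protocadherins (*PCDHB*), 4 FAT cadherins and 3 flamingo cadherins (*CELSR*). The alpha and gamma protocadherins (*PCDHA* and *PCDHG*, 38 rows) were not included, because their transcripts share exons. After a filter on low counts, 30 of the 57 could be tested, among 17176 genes in all.

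Cadherins are membrane proteins that join neighboring cells through repeated extracellular domains held rigid by calcium. The classical cadherins bind their own kind on the next cell and hold the actin cytoskeleton through beta-catenin and alpha-catenin, whereas protocadherins act mainly in recognition between cells, above all neurons, and lack the catenin-binding tail. FAT and flamingo cadherins are very large relatives that orient cells within a sheet, the process called planar cell polarity. Nervous system and kidney development both depend on exchanges between members of this family.

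The libraries came from HEK293, a cell line derived from human embryonic kidney. Cells were transfected with 1 of 4 constructs: human PEG10 gag-pol (the full retrovirus-like polyprotein of an imprinted, domesticated retroelement gene), PEG10 gag (its first reading frame only), PEG10 NC (the nucleocapsid end of gag, which holds a CCHC zinc finger) or, as the control, LifeAct-Dendra2 (an actin-binding peptide joined to a fluorescent protein). Every group, the control included, was therefore transfected, into cells labelled WT, and the study's methods give a CMV promoter for all constructs. Poly(A) RNA was sequenced from 3 separate passages of the line, giving 3 replicates per construct and 12 libraries. The comparisons asked whether PEG10, and its nucleocapsid when free, changes gene expression. RNA was measured over whole cultures, so a change in a share of the cells and a change of RNA per cell cannot be told apart.

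Depth ran from 30625725 to 45316749 counts per library, of which the 57 genes took 0.0704% to 0.119%. *PEG10* itself took 0.0230% to 0.0346% of counts in control, 2.80% to 7.35% in gag-pol, 3.78% to 6.10% in gag and 0.238% to 0.389% in NC, whose construct encodes only a short stretch of the gene. The HEK293 markers *PAX2*, *EYA1*, *LHX1*, *NEFL*, *NEFM*, *VIM*, *KRT8* and *KRT18* were present in every library, while the 5 blood markers stayed at 18 counts or fewer. Of the other marker lists, *DCN* and *LUM* of fibroblasts reached at most 8 counts while *COL1A1* held at least 644. The endothelial markers stayed at or under 40 counts and the hepatocyte markers at or under 50.

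In control cells the family was dominated by a few genes. Levels between genes are given per length, as RPKM (counts scaled by exon length and library size, mean ± SD, n = 3). *CELSR2* stood at 13.9 ± 4.65, *CDH24* at 12.5 ± 1.40, *CELSR3* at 9.89 ± 2.94, *CDH2* (N-cadherin) at 9.12 ± 1.07 and *CDH4* (R-cadherin) at 7.25 ± 1.77 RPKM. N-cadherin is the main cadherin of neural and mesenchymal cells, and R-cadherin is its close relative in retina and kidney. *CDH1* (E-cadherin), the adhesion molecule of epithelia, was far lower at 1.11 ± 0.293 RPKM, and its neighbor *CDH3* (P-cadherin) stood at 3.37 ± 0.813 RPKM.

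Among protocadherins, *PCDH7* at 6.18 ± 0.791, *PCDH1* at 4.33 ± 0.260 and *PCDH19* at 2.45 ± 0.787 RPKM led in control cells. Of the remaining flamingo and FAT genes, *CELSR1* stood at 5.81 ± 1.58, *FAT1* at 4.26 ± 1.90, *FAT3* at 1.79 ± 0.921 and *FAT4* at 1.13 ± 0.609 RPKM. The order is coarse: of the 29 neighboring pairs among the tested members, 28 had control libraries that overlapped. The exception was the step from *CDH22* at 0.932 ± 0.111 RPKM to *PCDH9* at 0.455 ± 0.0239 RPKM.

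**Figure D1:**
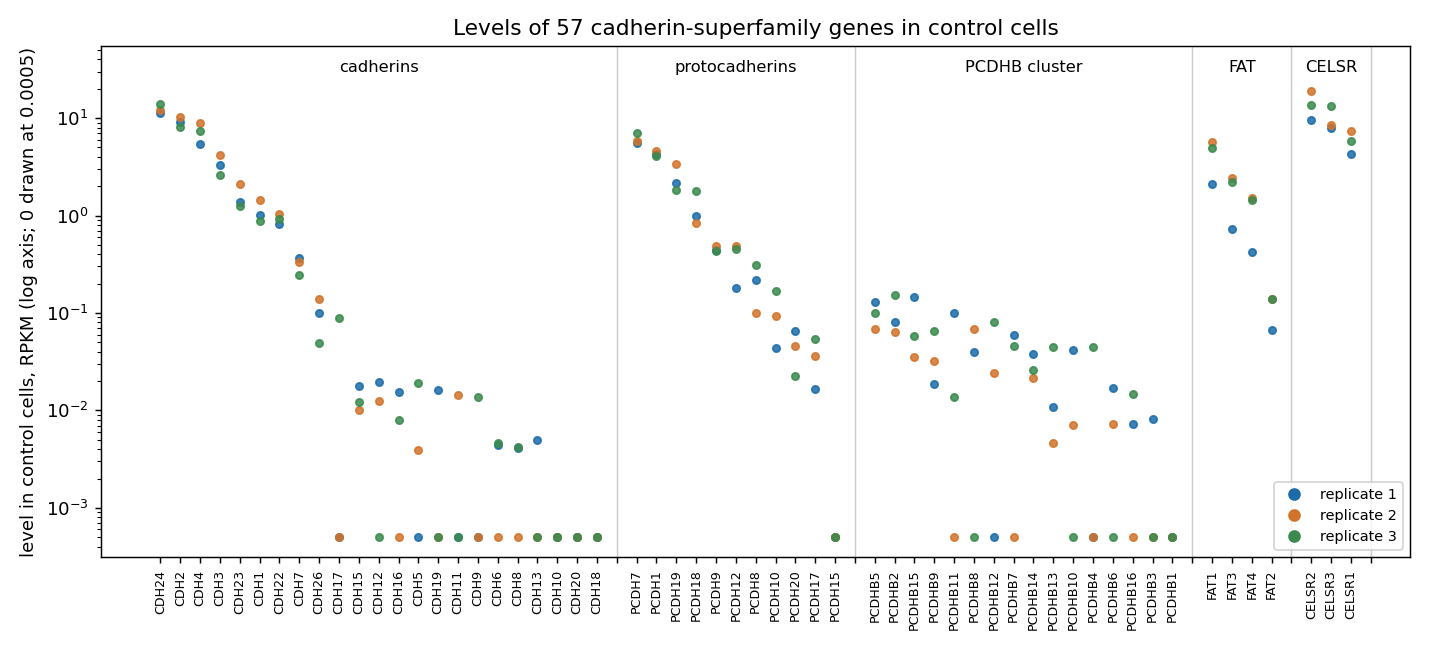
Level of each of the 57 genes in the 3 control libraries, in RPKM on a log axis, ordered by mean within each class, with one point per library colored by replicate number and libraries at 0 drawn at the foot of the axis. CELSR2, CDH24, CELSR3 and CDH2 lie highest, and the PCDHB genes stay below 0.2 RPKM.

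The beta protocadherins were close to silent. Their 16 genes lie in a row on the forward strand of chromosome 5, from 141051374 to 141249365 (GRCh38, GENCODE 44), and in neurons each cell switches on a random few of them to mark its identity. The counts of all 16 together summed to 51 to 121 per library, and the highest count of any of them was 30. *PCDHB1* had no count in any library. Of the 4 that passed the filter, *PCDHB5* stood at 0.0998 ± 0.0302, *PCDHB2* at 0.0993 ± 0.0478 and *PCDHB15* at 0.0798 ± 0.0584 RPKM in control cells.

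*PCDHB12* had the largest fitted difference from control among members not called, both with gag-pol and with gag. Its raw counts were 0, 4 and 11 in control, 1, 0 and 0 in gag-pol, 1, 14 and 9 in gag and 10, 0 and 2 in NC (replicates 1, 2 and 3). Summed over replicates, gag-pol held 0.0633 times the level of control (exact 95% counting interval 0.00150 to 0.411), and gag 1.71 times (0.863 to 3.51). These intervals cover counting error only, and they take each count as an independent event. If both mates of a read pair were counted, they are too narrow even for that error. The scatter within a construct was as wide as these differences, and neither passed the test (adjusted p = 0.196 and 0.818, edgeR's quasi-likelihood test).

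Of the 27 members that failed the filter, 12 were beta protocadherins, 14 were cadherins and the last was *PCDH15*, the tip-link partner of *CDH23*. None exceeded 18 counts in a library, and *CDH10* and *PCDHB1* had none at all. The cadherins among them include *CDH5* (VE-cadherin, of endothelium, at most 9 counts), *CDH16* (kidney-specific cadherin, of renal tubules, at most 7 counts), *CDH15* (M-cadherin, of muscle, at most 11 counts) and *CDH11* (OB-cadherin, of mesenchyme, at most 8 counts). Differences between constructs were not tested for these genes.

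The contrast described first set NC and gag-pol against gag and control. It follows a pattern that the study describes for these same samples, so it is not independent evidence of a direction. Of the 30 tested members, 9 were called at an adjusted p under 0.05 (edgeR's quasi-likelihood test with replicate number as a block and Benjamini-Hochberg adjustment over 17176 genes), a share of 30%, where 24.7% of all genes were called. Of these, 8 were higher with gag-pol and NC (26.7% of members, against 13.1% of all genes) and 1 was lower (3.33%, against 11.6%). The median log2 difference was 0.15 over the members and -0.01 over all genes.

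With gag-pol and NC set against gag and control, all 4 tested type I cadherins were higher. These are the classical cadherins of adherens junctions, and the fifth, *CDH15*, was too low to test. In each list of values that follows, counts are normalized to the mean library total and given for replicates 1, 2 and 3. *CDH3* was at 796, 1012 and 622 in control, 515, 988 and 602 in gag, 826, 1287 and 1063 in gag-pol and 907, 1384 and 1008 in NC. Replicate 2 was highest with every construct, and within each replicate gag-pol and NC lay above gag and control. The log2 difference was 0.53 ± 0.09 (SE), with an adjusted p of 0.000207 (edgeR). *CDH1*, which begins 9823 bases beyond the end of *CDH3* on the same strand of chromosome 16, held 229, 329 and 202 in control, 190, 235 and 143 in gag, 235, 366 and 226 in gag-pol and 243, 420 and 272 in NC. Every NC library lay above every gag library, while gag-pol and control overlapped. Its log2 difference between the paired groups was 0.41 ± 0.11 (adjusted p = 0.0105, edgeR).

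*CDH2* held 2955, 3278 and 2588 normalized counts in control, 2551, 2825 and 2718 in gag, 2997, 3453 and 3245 in gag-pol and 3278, 3968 and 3448 in NC. Both gag-pol and NC stood above all gag libraries, while control overlapped both gag and gag-pol. The log2 difference was 0.27 ± 0.06 (adjusted p = 0.00157, edgeR). *CDH4* held 1523, 2519 and 2104 in control, 1214, 2284 and 1878 in gag, 1523, 2562 and 2864 in gag-pol and 1975, 2881 and 2631 in NC. Its groups overlapped, and replicate 1 was the lowest with every construct. The log2 difference was 0.33 ± 0.07 (adjusted p = 0.00119, edgeR).

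The 3 tested type II cadherins, of 13 in the table, are relatives that sort neurons and other cells into groups. None was called in this contrast. *CDH24*, the highest of them, held 1606, 1685 and 1980 in control, 1563, 1679 and 1971 in gag, 1627, 1414 and 1866 in gag-pol and 1555, 1378 and 1623 in NC, a log2 difference of -0.15 ± 0.06 (adjusted p = 0.0797, edgeR). Outside the classical groups, *CDH23*, whose long protein forms the tip links of hair cells in the inner ear, held 954, 1489 and 872 in control, 838, 1371 and 888 in gag, 966, 1803 and 1442 in gag-pol and 1265, 1842 and 1667 in NC. Gag-pol in replicate 1 was level with control, and the other gag-pol and NC libraries exceeded gag and control of the same replicate. Its log2 difference was 0.49 ± 0.08 (adjusted p = 0.000258, edgeR).

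Of the 10 tested *PCDH* genes, *PCDH19* alone was called. It is a delta-2 protocadherin that binds N-cadherin and is mutated in an epilepsy linked to the X chromosome. It held 796, 1225 and 675 in control, 555, 888 and 708 in gag, 781, 1500 and 862 in gag-pol and 1008, 1317 and 955 in NC. All NC libraries lay above all gag libraries, and the log2 difference between the paired groups was 0.41 ± 0.08 (adjusted p = 0.00129, edgeR). The delta-1 protocadherins *PCDH7* and *PCDH1* had log2 differences of -0.07 ± 0.06 and -0.04 ± 0.08 in the same contrast (adjusted p = 0.411 and 0.772, edgeR).

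The 3 flamingo cadherins, receptors that align cells in planar polarity and guide axon tracts, were all called, and in opposite directions. *CELSR3*, the form most tied to axon tracts in the brain, was the only called member that was lower with gag-pol and NC. It held 4100, 4440 and 6903 in control, 4773, 5021 and 6460 in gag, 3519, 4089 and 4670 in gag-pol and 3916, 3442 and 5183 in NC. All gag libraries exceeded all gag-pol libraries, and the log2 difference between the paired groups was -0.34 ± 0.06 (adjusted p = 0.000512, edgeR).

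*CELSR1* held 2563, 4464 and 3482 in control, 2985, 4797 and 3358 in gag, 3356, 5868 and 4232 in gag-pol and 3267, 4768 and 4353 in NC, with a log2 difference of 0.26 ± 0.06 (adjusted p = 0.00231, edgeR). *CELSR2* held 4573, 9049 and 6554 in control, 4091, 8248 and 6205 in gag, 4708, 9364 and 8367 in gag-pol and 5240, 8335 and 8740 in NC, with a log2 difference of 0.22 ± 0.06 (adjusted p = 0.0120, edgeR). For both genes the spread among replicates was wider than the step between constructs, and in replicate 2 NC lay below gag for *CELSR1* and below control for *CELSR2*. The mean difference of the paired groups had the same sign in all 3 replicates for each of the 9. All 9 held with any 1 of the 12 libraries left out, and 7 held with any whole replicate number left out, the exceptions being *CDH1* and *CELSR2*. Without the replicate number in the model no member was called, with 4 at an unadjusted p under 0.05. Against control alone, *CDH1*, *PCDH19* and *CELSR2* were called with neither gag-pol nor NC (adjusted p from 0.0890 to 0.687, edgeR).

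**Figure D2:**
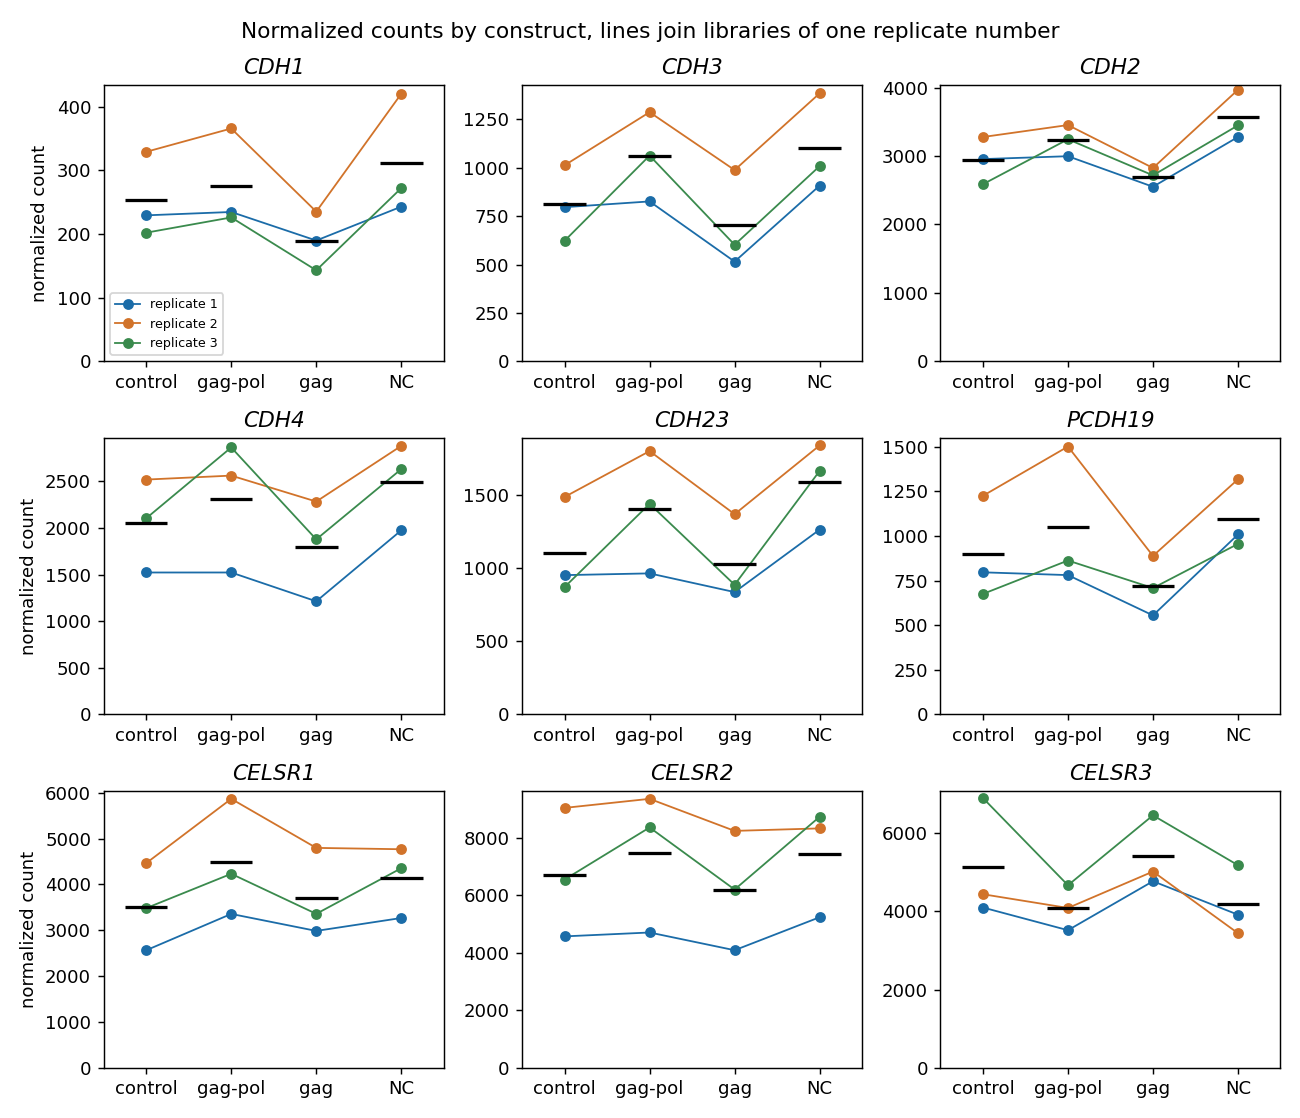
Normalized counts of the 9 members called when NC and gag-pol were set against the other groups, one point per library, with lines joining the 4 libraries of a replicate number and black bars for the mean of each construct (n = 3). On average CELSR3 is lower and the other 8 are higher with gag-pol and NC than with gag and control. Against control alone, CDH1, PCDH19 and CELSR2 were called with neither. The offset between colored lines is often larger than the step between constructs.

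**Figure D3:**
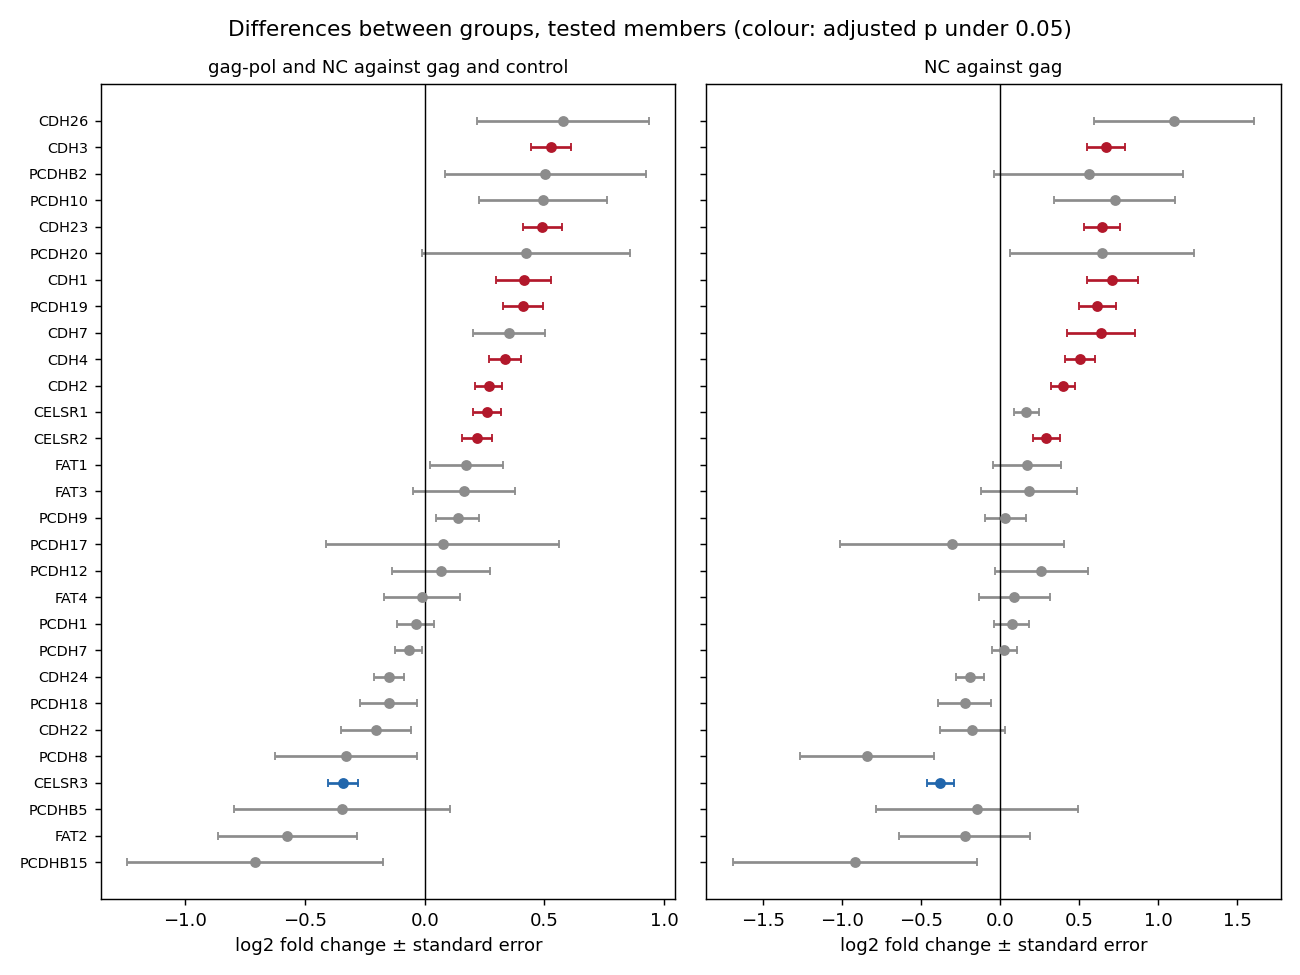
Log2 fold change with its standard error from the edgeR fit, for NC and gag-pol relative to gag and control (left) and for NC against gag (right), in 29 of the 30 tested members. PCDHB12, whose counts are given in the text, is left off for its wide error. Colored points have an adjusted p under 0.05, and CELSR3 is the only one to the left of 0 in either panel.

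Promoter windows from RefSeq (GRCh38.p14, 250 bases before to 50 after the annotated start) were matched by symbol for 39 of the 57 members. Several called genes were higher together in the contrast of the paired groups, so the windows of 4 of them are shown. They belong to 3 genes that were higher with gag-pol and NC and to *CELSR3*, which was lower. This set was chosen after their values were seen. They lie at chr18:28177081-28177380 (minus strand) for *CDH2*, chr10:71396670-71396969 (plus strand) for *CDH23*, chrX:100410224-100410523 (minus strand) for *PCDH19* and chr3:48662837-48663136 (minus strand) for *CELSR3*. All are printed 5′ to 3′ along the gene's strand. Capitals mark the 6-base GC box core GGGCGG or its reverse complement CCGCCC, the letters bound by Sp1-type factors, and matches may overlap.
CDH2: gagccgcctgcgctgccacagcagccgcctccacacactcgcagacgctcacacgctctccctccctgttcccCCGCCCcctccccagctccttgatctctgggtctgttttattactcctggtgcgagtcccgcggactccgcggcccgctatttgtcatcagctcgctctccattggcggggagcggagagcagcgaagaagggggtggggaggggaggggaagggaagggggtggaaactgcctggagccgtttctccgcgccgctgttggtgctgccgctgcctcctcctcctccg
CDH23: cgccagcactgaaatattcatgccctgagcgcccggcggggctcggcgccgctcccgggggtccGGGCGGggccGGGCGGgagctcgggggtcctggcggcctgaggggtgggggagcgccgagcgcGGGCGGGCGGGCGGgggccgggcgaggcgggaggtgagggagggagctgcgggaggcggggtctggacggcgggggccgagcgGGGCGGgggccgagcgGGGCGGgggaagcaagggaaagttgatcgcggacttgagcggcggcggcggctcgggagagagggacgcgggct
PCDH19: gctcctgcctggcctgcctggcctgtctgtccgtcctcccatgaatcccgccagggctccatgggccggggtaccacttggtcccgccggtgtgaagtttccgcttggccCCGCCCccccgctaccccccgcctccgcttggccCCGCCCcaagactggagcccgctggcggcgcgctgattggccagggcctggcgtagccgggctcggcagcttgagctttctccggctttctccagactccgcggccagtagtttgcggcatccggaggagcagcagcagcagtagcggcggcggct
CELSR3: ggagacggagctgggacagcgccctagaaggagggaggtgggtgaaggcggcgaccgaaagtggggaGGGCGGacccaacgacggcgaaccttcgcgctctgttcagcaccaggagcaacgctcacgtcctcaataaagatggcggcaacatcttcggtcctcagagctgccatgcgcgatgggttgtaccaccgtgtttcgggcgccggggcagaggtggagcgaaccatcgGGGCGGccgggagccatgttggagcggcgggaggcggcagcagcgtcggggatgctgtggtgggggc
The core occurred 1 time for *CDH2*, 7 times for *CDH23*, 2 times for *PCDH19* and 2 times for *CELSR3*, whose windows were 67.0%, 80.0%, 71.0% and 67.0% G or C. It was present in 44.95% of all 35116 windows and in 11 of the 39 members' windows. The E-box CACCTG or CAGGTG, the letters read by SNAI and ZEB repressors of classical cadherins, was present in 20.6% of all windows and in 3 of the 39. These were the windows of *CDH4*, *PCDH1* and *PCDHB1*, of which only *CDH4* is a classical cadherin. *CDH1* and *CDH3* had no window. Of the other called members with a window, *CELSR2* held the core 2 times, while *CDH4* and *CDH7* held it 0 times. The *CDH4* window begins at base 61499171 of its chromosome, inside the gene, which starts at 61252261 in GENCODE on the plus strand. The windows of *CDH2*, *CDH8*, *CDH9*, *PCDH1* and *PCDH12* also lie inside their GENCODE genes. For these genes the motif counts describe the RefSeq start used, and the region before the outermost start was not searched.

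Against gag, NC gave the widest differences in the family. Of the 30 tested members 9 were called, or 30%, where 16.9% of all genes were. Of these, 8 were higher with NC (26.7%, against 8.76% of all genes) and 1 was lower (3.33%, against 8.12%). Over the members the median log2 difference was 0.17, and over all genes it was -0.01. The 4 tested type I cadherins were all higher with NC than with gag. On the log2 scale the differences were 0.71 ± 0.16 for *CDH1*, 0.67 ± 0.12 for *CDH3*, 0.51 ± 0.10 for *CDH4* and 0.40 ± 0.08 for *CDH2*. Their adjusted p lay between 0.00120 for *CDH3* and 0.00524 for *CDH1* (edgeR). *CDH23* was higher by 0.64 ± 0.11 (adjusted p = 0.00115, edgeR) and *PCDH19* by 0.62 ± 0.12 (adjusted p = 0.00188, edgeR). Relative to control, *CDH1* lay at -0.42 ± 0.16 with gag and 0.29 ± 0.16 with NC. *PCDH19* lay at -0.31 ± 0.12 and 0.31 ± 0.12, and none of these differences from control was called. *CELSR3* was the single called member lower with NC, by a log2 difference of -0.38 ± 0.09 (adjusted p = 0.00549, edgeR).

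These 7 calls held in all 12 fits that left out a library. The remaining 2 did not. *CELSR2* was higher with NC by 0.29 ± 0.09 (adjusted p = 0.0242, edgeR), and its call held in 8 of the 12. *CDH7*, a type II cadherin of neural tissue, held 140, 184 and 106 normalized counts in gag and 165, 242 and 257 in NC, so that NC exceeded gag in each replicate, most in the third. Its log2 difference was 0.64 ± 0.21 (adjusted p = 0.0419, edgeR) and the call held in 5 of the 12 fits. With whole replicate numbers left out, only *CDH3* and *CDH23* were called in all 3 fits.

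Gag-pol against gag called 6 members (20%, against 6.46% of all genes). Of them 5 were higher with gag-pol (16.7%, against 3.03%) and *CELSR3* was lower (3.33%, against 3.42%). The members had a median log2 difference of 0.02 and all genes one of -0.01. *CDH3* was higher by 0.62 ± 0.12 (adjusted p = 0.00566, edgeR), *PCDH19* by 0.51 ± 0.12 (0.0129) and *CDH4* by 0.37 ± 0.10 (0.0222). *CDH23* was higher by 0.44 ± 0.11 (adjusted p = 0.0247, edgeR) and *CDH1* by 0.53 ± 0.16 (0.0493), while *CELSR3* changed by -0.40 ± 0.09 (0.00976). Gag-pol against control gave 0.12 ± 0.16 for *CDH1* and 0.21 ± 0.12 for *PCDH19*, neither of them called. *CDH2* at 0.26 ± 0.08 and *CELSR1* at 0.26 ± 0.08 fell just short of the threshold (adjusted p = 0.0502 and 0.0504, edgeR). None of the 6 held in every fit that left out a library: no member was called without gag replicate 1 or without gag-pol replicate 3, 2 without gag replicate 2, and 3 without gag replicate 3 or gag-pol replicate 2.

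Between NC and gag-pol no member was called by edgeR, where 0.0873% of all genes were, none had an unadjusted p under 0.05, and DESeq2 called 0. The median log2 difference was 0.14 over the members and 0.02 over all genes. For *CDH3* the log2 difference was 0.05 ± 0.12, for *CDH2* 0.14 ± 0.08, for *CDH23* 0.21 ± 0.11 and for *CELSR3* 0.02 ± 0.09, each NC minus gag-pol. Without NC replicate 2, 2 members were called.

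The next 3 comparisons share the control libraries. Against them, gag-pol called 3 of 30 (10%, against 11.3% of all genes): *CELSR1* rose by 0.35 ± 0.08 (adjusted p = 0.00686, edgeR), *CDH3* rose by 0.38 ± 0.12 (0.0403) and *CELSR3* changed by -0.30 ± 0.09 (0.0266). The 2 that rose were 6.67% of members, where 5.48% of all genes rose, and the 1 that fell was 3.33%, where 5.83% of all genes fell. The median log2 difference was 0.13 over the members and -0.00 over all genes. *CELSR1* was called in all 12 fits that left out a library. Only 1 member was called without control replicate 2, control replicate 3 or gag-pol replicate 3.

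Gag against control called none of the members, where 1.08% of all genes were called, and 5 had an unadjusted p under 0.05 in edgeR. DESeq2 also called 0. Those 5 included *CDH1* at -0.42 ± 0.16, *PCDH19* at -0.31 ± 0.12 and *CDH4* at -0.21 ± 0.10 on the log2 scale (adjusted p = 0.244, 0.244 and 0.334, edgeR). The median log2 difference was -0.06 over the members and 0.00 over all genes.

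NC against control called 6 members (20%, against 11.2% of all genes). Of these 5 rose (16.7%, against 6.04%) and *CELSR3* fell (3.33%, against 5.15%). *CDH23* rose by 0.54 ± 0.11 (adjusted p = 0.00547, edgeR), *CDH3* by 0.43 ± 0.12 (0.0233), *CDH2* by 0.28 ± 0.08 (0.0267), *CELSR1* by 0.26 ± 0.08 (0.0418) and *CDH4* by 0.30 ± 0.09 (0.0447), and *CELSR3* changed by -0.28 ± 0.09 (0.0377). The members had a median log2 difference of 0.24 and all genes one of 0.00. *PCDH20*, a low protocadherin, had the largest difference among members not called, 1.31 ± 0.61 (adjusted p = 0.167, edgeR), on 12.5, 8.87 and 4.30 normalized counts in control and 12.3, 23.3 and 27.5 in NC. The calls leaned on single libraries: none was made without control replicate 3, 1 without control replicate 2 or NC replicate 3, 2 without NC replicate 1 and 3 without gag replicate 1. With the 3 PEG10 constructs tested together for any difference among the 4 groups, 9 members were called (30%, against 20.6% of all genes).

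Replicate number was taken as the passage of the cells, although no passage is given for single libraries. The test over replicate numbers called 19 of the 30 tested members (63.3%), where 52.8% of all genes were called. All 4 FAT genes were among the 19, and none of the FAT genes was called in a comparison of constructs. *FAT1*, a giant cadherin that restrains growth and shapes actin at cell contacts, held 1289, 3488 and 2987 normalized counts in control, 1411, 4440 and 3021 in gag-pol, 1294, 3900 and 4086 in gag and 1919, 3073 and 4806 in NC. Replicate 1 was the lowest in every construct. The log2 difference of replicate 2 from replicate 1 was 1.36 ± 0.19 for *FAT1*, 1.12 ± 0.36 for *FAT2*, 1.61 ± 0.27 for *FAT3* and 1.63 ± 0.20 for *FAT4*, with adjusted p over the replicate numbers of 0.00120, 0.0145, 0.00440 and 0.000147 (edgeR). Replicate 3 stood as far above replicate 1, by 1.33 ± 0.19, 1.21 ± 0.36, 1.57 ± 0.27 and 1.72 ± 0.20.

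*FAT4*, which binds *DCHS1* on the next cell, held 340, 1203 and 1163 in control and 490, 862 and 1696 in NC. *FAT3*, which shapes neurons of the retina, held 540, 1798 and 1616 in control and 865, 1347 and 2658 in NC. *FAT2*, a relative known from cerebellum, was rare, at 37.4, 77.2 and 76.3 in control and 27.7, 21.4 and 80.4 in NC. *PCDH12*, a protocadherin of vessels and placenta, shifted as FAT genes did, by 1.38 ± 0.26 in replicate 2 and 1.35 ± 0.26 in replicate 3 (adjusted p = 0.000231, edgeR). *CELSR2* rose by 0.92 ± 0.08 and 0.68 ± 0.08 and *CDH4* by 0.73 ± 0.08 and 0.61 ± 0.08.

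Other members were highest in a single replicate number. *CDH1*, *CDH3*, *CDH23* and *PCDH19* were higher in replicate 2 than in replicate 1, by 0.57 ± 0.14, 0.63 ± 0.10, 0.70 ± 0.10 and 0.66 ± 0.10, and lay at -0.68 ± 0.14, -0.53 ± 0.10, -0.45 ± 0.10 and -0.61 ± 0.10 in replicate 3 relative to replicate 2. *CELSR3* and *PCDH10*, a delta-2 protocadherin, were instead highest on average in replicate 3, by 0.50 ± 0.08 and 0.98 ± 0.33 over replicate 1. The tested members are long transcripts, with a median exon length of 7954 bases against 5057 over all genes tested. Over all genes the log2 difference between replicates 2 and 1 had a Spearman correlation of 0.115 with exon length across 15369 genes, and genes of at least 10000 exon bases had a median of 0.11. For NC and gag-pol relative to gag and control the same values were 0.051 and 0.00. The part of transcript length in the differences between replicate numbers was not tested.

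**Figure D4:**
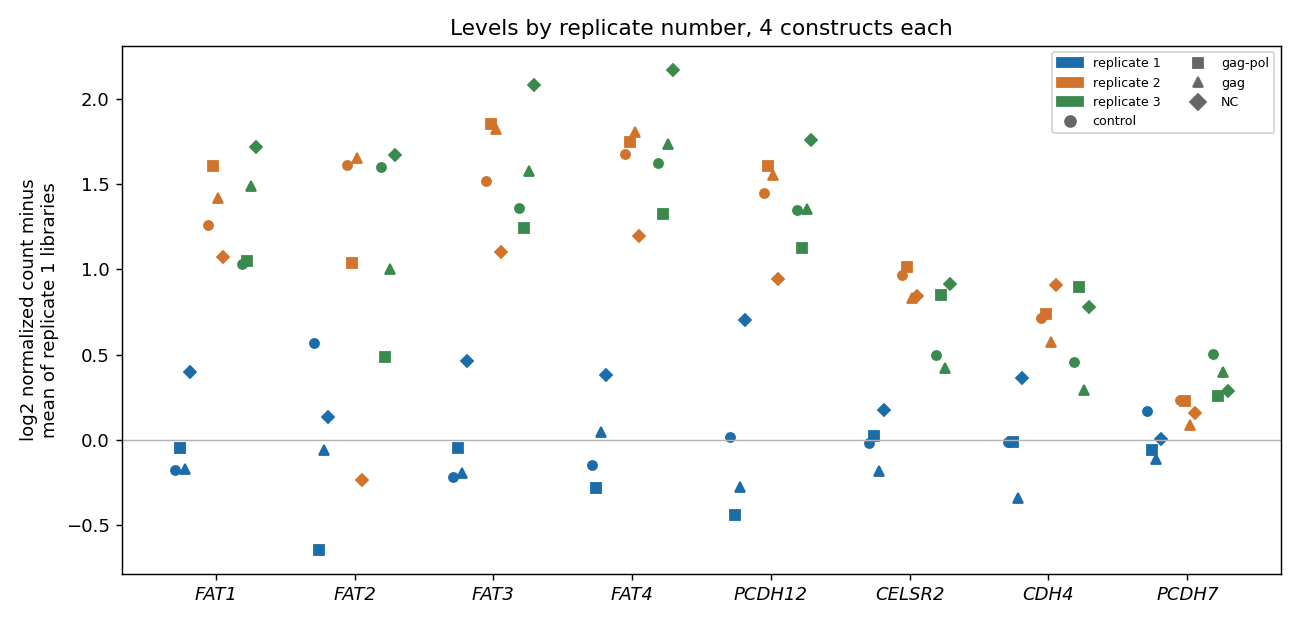
Log2 normalized count of 8 members in each library, minus the mean of the 4 replicate 1 libraries, colored by replicate number with a symbol per construct. The FAT genes and PCDH12 sit higher in replicates 2 and 3 than in replicate 1, apart from FAT2, whose replicates overlap, and PCDH7 moves least of the 8.

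The lists that follow hold genes tied to cadherins by function, each compared with control, where gag-pol called 11.3% of all genes (5.48% higher and 5.83% lower), gag 1.08% and NC 11.2% (6.04% higher and 5.15% lower). Of 14 tested catenins and other partners of the cadherin tail (17 listed), 0 rose and 2 fell with gag-pol, 0 rose and 1 fell with gag, and 0 rose and 2 fell with NC, each against control. *JUP* (plakoglobin, a catenin of both adherens junctions and desmosomes) had log2 differences of -0.47 ± 0.08, -0.35 ± 0.08 and -0.37 ± 0.08 in the order gag-pol, gag, NC (adjusted p = 0.00140, 0.0388 and 0.00745, edgeR), all against the same control libraries. *LIMA1* (EPLIN, which ties alpha-catenin to actin) had -0.42 ± 0.08 with gag-pol and -0.38 ± 0.08 with NC (adjusted p = 0.00196 and 0.00508, edgeR). The list median was -0.07 for gag-pol, -0.05 for gag and 0.00 for NC.

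Of 7 tested desmosome genes, *PKP2* (a plakophilin) rose by 0.32 ± 0.08 with NC (adjusted p = 0.0172, edgeR), and none was called with gag-pol or gag. Of 11 tested genes for other cadherin relatives, *RET*, a receptor kinase with cadherin-like domains, rose by 0.61 ± 0.16 with gag-pol and 0.65 ± 0.16 with NC (adjusted p = 0.0181 and 0.0134, edgeR), *CDHR1* rose by 0.33 ± 0.10 with NC (0.0355), and none fell. Of 16 tested planar polarity genes, *FJX1*, the four-jointed homolog, which tunes FAT4 binding, rose by 0.57 ± 0.11 with gag-pol (adjusted p = 0.00223, edgeR) and *FUZ* changed by -0.28 ± 0.09 (0.0427). Neither gag nor NC called any of these 16.

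Among 16 tested genes that cut, glycosylate or degrade membrane proteins, cadherins among them, 2 rose and 2 fell with gag-pol. With gag 0 were called, and with NC 1 rose. Of all genes, 11.3%, 1.08% and 11.2% were called with gag-pol, gag and NC. *TMTC4*, of a family that adds O-linked mannose to cadherins, rose by 0.39 ± 0.11 with gag-pol and 0.43 ± 0.11 with NC (adjusted p = 0.0293 and 0.0193, edgeR). With gag-pol, its relative *TMTC3* changed by -0.32 ± 0.09 (0.0191), *PSEN2*, a gamma-secretase subunit, by 0.39 ± 0.10 (0.0110) and *POMT1* by -0.27 ± 0.09 (0.0438). Of the 10 transcription factors known to act on classical cadherin genes, *ZEB1*, a repressor of E-cadherin, changed by -0.33 ± 0.08 with gag-pol (adjusted p = 0.00751, edgeR) and no other was called against control. None of the 16 chromatin regulators of clustered protocadherins was called against control with any construct.

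Of 12 tested genes that act beneath protocadherins, mainly the WAVE complex that drives branched actin, 2 rose with gag-pol, 0 were called with gag, and 2 rose and 1 fell with NC. *CYFIP2* rose by 0.31 ± 0.08 and 0.38 ± 0.08 and *CYFIP1* by 0.28 ± 0.07 and 0.30 ± 0.07 with gag-pol and NC (adjusted p = 0.0125, 0.00478, 0.0179 and 0.0128, edgeR), and the kinase *TAOK2* changed by -0.42 ± 0.09 with NC (0.00623). Of 12 tested TCF factors and beta-catenin targets, 4 rose with gag-pol and 1 with NC, where 5.48% and 6.04% of all genes rose. None of the 12 fell with either or was called with gag. *TCF7* rose by 0.54 ± 0.10 with gag-pol and 0.37 ± 0.10 with NC, and *NKD2*, *ZNRF3* and *LEF1* rose by 0.37 ± 0.08, 0.34 ± 0.09 and 0.31 ± 0.09 with gag-pol (adjusted p from 0.00142 for *TCF7* with gag-pol to 0.0276 for *LEF1*, edgeR). The list medians were 0.30 for gag-pol, 0.10 for gag and 0.11 for NC. With NC set against gag instead, 1 of these 12 genes was called, where 16.9% of all genes were. It was *AXIN2*, which was lower with NC, at -0.39 ± 0.12 (adjusted p = 0.0297, edgeR). The list median in that comparison was -0.01.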

How the data were processed

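Raw read counts per gene for 12 libraries, deposited by the authors, were the only values used, and all columns were used. According to the methods and the submitters' processing notes, reads were mapped to GRCh38.p13 with STAR 2.7.3, handled with SAMtools 1.8 and counted with featureCounts. The annotation release, strand setting and handling of multi-mapped reads are not given in the sources used here, so counts of overlapping genes and of the near-identical *PCDHB* genes are uncertain. Counts of 2 were more frequent (10274) than counts of 1 (5430), as where both mates of a pair are counted. The control is LifeAct-Dendra2 per the labels, while part of the methods calls it pCDNA.

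Differences were fitted in edgeR 4.0.16 (with limma 3.58.1, R 4.3.3) after TMM scaling. Its default filter asked for a total of 15 counts and for a level of 10 counts, scaled for depth, in at least 3 libraries. That number is the size of a construct group, and the libraries need not share a construct. A single robust quasi-likelihood fit covered the 12 libraries, its terms being construct and replicate number, with 6 residual degrees of freedom. P-values were adjusted by the Benjamini-Hochberg method across 17176 genes, and a gene was called under 0.05. The common biological coefficient of variation was 10.7%. Standard errors were derived from the log2 fold change and its F statistic. A normalized count is the raw count over its library's TMM-scaled size, times the mean library total. RPKM used the exon union of GENCODE 44. The script was tested on simulated data.

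The series' design names 3 passages, and replicate numbers were taken to mark them, although no passage is given for single libraries. Same-numbered libraries deviated together (correlations 0.138 to 0.539 over 18 pairs, against -0.498 to 0.0720 over 36 others), so replicate number was kept as a block.

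The members, gene lists and tests were chosen with earlier results of these data known. Named were all members called in a comparison of constructs, the 3 with the highest RPKM in control per class, the largest uncalled difference from control per construct, and of each list at most 4 called against control. *CDH22*, *CDH24* in the contrasts, *CDH5*, *CDH8*, *CDH9*, *CDH11*, *CDH15*, *CDH16*, *FAT2*, *PCDH9*, *PCDH10* and *PCDH12* were named in addition, after their values were seen. *AXIN2* of the last list was added in the same way. The lists were catenin partners, desmosome, other cadherin relatives, planar polarity, processing, transcription factors, chromatin regulators, protocadherin effectors and TCF factors and targets.

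Alternatives were DESeq2 1.42.0, RLE factors, *PEG10* left out, no filter, thinning to the smallest library, no replicate number, the 6 compared libraries only, and each library left out. Leaving out whole replicate numbers was added after seeing the data. Tables and figures were made in Python 3.11.15 with pandas 2.3.3, scipy 1.17.1 and matplotlib 3.10.9.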

Additional observations from a re-analysis of the deposited data

How the results depend on the processing

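The number of members called depended most on the replicate block. Without it the count was 0 in each comparison of constructs, while 6 members for NC against gag, 4 for NC and gag-pol relative to gag and control, 3 for gag-pol against gag and 2 for NC against control had an unadjusted p under 0.05 in edgeR. For *CDH1*, *CDH2*, *CDH3*, *CDH4*, *CDH7*, *CDH23*, *PCDH19*, *PCDH20*, *PCDHB12* and the *CELSR* genes, the differences refitted without it did not reverse. With only the 6 compared libraries, gag-pol against control called 1 member in place of 3. DESeq2, RLE factors, *PEG10* left out, no filter and thinned counts each kept every count within 1.5 times its value.

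With 1 library or 1 replicate number left out, the counts ran from 1 to 4 for gag-pol against control, 0 to 1 for gag against control, 0 to 8 for NC against control, 0 to 9 for gag-pol against gag, 3 to 12 for NC against gag, 0 to 3 for NC against gag-pol, 2 to 12 for the 3 constructs together and 7 to 11 for NC and gag-pol relative to gag and control. The single call for gag against control came without replicate 3, and the 3 for NC against gag and the 2 for the joint test came without replicate 1. The log2 difference of *CDH7* for gag-pol against control, 0.06 with all libraries, ran from -0.093 to 0.29, and was below 0 where replicate 3 (all its libraries), the second control library (-0.000329) or the third one (-0.075) was left out. That of *PCDHB12* for gag against control, 0.79 with all libraries, ran from -0.43 without gag replicate 2 to 2.19 without control replicate 3. None of these was past the threshold, and the cause was not tested.

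The 27 members under the filter on low counts were not tested in the comparisons of the text. The block left 6 residual degrees of freedom, and calls against control rested on 3 control libraries shared by 3 comparisons.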

Other observations

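When NC and gag-pol were set against gag and control, 13.1% of all genes rose and 11.6% fell. In that contrast 5 of the 12 tested genes beneath protocadherins rose and 1 fell, with a list median of 0.18 on the log2 scale against -0.01 over all genes. Of the 12 TCF factors and targets 4 rose and 0 fell (median 0.17), and of the 16 processing genes 3 rose and 2 fell (median -0.04). Of the 16 chromatin regulators of clustered protocadherins 2 rose and 2 fell (median 0.00). Of the 14 catenin partners 1 rose and 2 fell (median -0.02), of the 16 planar polarity genes 1 rose and 1 fell (median 0.01), of the 10 transcription factors 0 rose and 2 fell (median 0.02), of the 11 other cadherin relatives 2 rose and 0 fell (median 0.08), and of the 7 desmosome genes 1 rose and 0 fell (median 0.14).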
